A study of Homo sapiens with 4 samples.

Results

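Replication-dependent histone cluster genes were examined in DU145, a human cell line from prostate cancer whose growth does not need androgen, after treatment with compounds described as inhibitors of PSF, the nuclear RNA-binding protein encoded by SFPQ. A gene was taken as a member when its current symbol was H1-1 to H1-6 or belonged to the H2AC, H2BC, H3C or H4C series, older names having been updated by Entrez identifier, and 61 of the 17687 named genes on the array met that rule. They comprised 6 genes of H1, 14 of H2A, 17 of H2B, 9 of H3 and 15 of H4, each read by a single probe set. The cells were exposed for 48 h to C-30 at 2 µM, C-30 at 0.5 µM, No.10-3 at 5 µM or vehicle, in medium with fetal serum, and each condition is represented by 1 array, so differences carry neither error nor test and what follows describes these 4 arrays. The gene family was chosen by its log2 differences between the C-30 arrays and this vehicle array, which had been seen to be low, so those differences are a description and support nothing by themselves. All differences are between log2 RMA signals, RMA being the method that corrects background, normalizes arrays and summarises each probe set, and 2-fold stands for 1 unit of that scale, as deposited.

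The core histones H2A, H2B, H3 and H4 form the protein spool of the nucleosome, and linker histone H1 binds the DNA where it enters and leaves that spool. Their replication-dependent genes lie in clusters, are transcribed mainly in S phase, and yield mRNAs that end in a conserved stem-loop in place of a poly(A) tail. That end is made by a dedicated processing complex and bound by the stem-loop binding protein SLBP, and the mRNAs are degraded quickly when DNA synthesis stops. Labelling of total RNA by a whole-transcript kit does not depend on a poly(A) tail.

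Array medians over the 17687 named genes lay between 5.55 and 5.57, and across these genes the arrays correlated pairwise at 0.979 to 0.987 (Pearson). A background level was set for each array at the 95th percentile of its 612 negative control probe sets, which lay between 7.06 and 7.32. A gene was counted in a comparison when its mean over the 4 arrays was at least 5.56, the median over named probe sets. This floor is the same for every comparison, and 8852 genes passed it. The keratin genes KRT8, KRT18 and KRT19 and the epithelial adhesion gene EPCAM were above background on all 4 arrays. CDH1, the other epithelial gene looked at, was within background on all 4. The leukocyte genes PTPRC, CD3E, CD14 and LYZ were also within background on each array. The 63 ERCC probe sets are made to read spiked RNA standards, but whether such standards were added to these samples was not checked. Their median differences from vehicle were -0.06 for C-30 at 2 µM, -0.04 for C-30 at 0.5 µM and -0.16 for No.10-3. The robust SDs were 0.271, 0.166 and 0.126.

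With C-30 the clustered histone genes were lower at both doses, and at 2 µM they made up the low end of all genes. In these bulk RNA samples, fewer cells in S phase and less histone mRNA per cell cannot be told apart. Histone genes of a family are near-identical copies, so a probe set can read more than 1 of them and the values of single members are uncertain to that extent. Of the 61 members, 51 passed the floor. With C-30 at 2 µM, 48 of these 51 were at least 2-fold lower than with vehicle, where 6.12% of all genes past the floor were. All 51 were below vehicle, as were 54.1% of all genes past the floor. Their median difference was -2.44, and that of all genes past the floor was -0.06. At least 4-fold lower were 38 members, of 42 genes in all (0.474% of genes past the floor), and at least 8-fold lower were 15 members, which were all 15 genes past that mark (0.169%). Among the 15, H3C10 was within background at 2 µM, so it can only be called at least 3.68-fold lower. For H2BC9, H2BC17, H4C2 and H4C5, among the 38, the lower bound taken against background was also under 4-fold. H2BC26, also among the 38, was within background on both arrays. With C-30 at 0.5 µM, 31 of the 51 were at least 2-fold lower, against 2.68% of all genes past the floor, and the median difference was -1.08 beside -0.04 for all genes. Again all 51 were below vehicle (53.1% of all genes). With No.10-3, 1 of the 51 was at least 2-fold lower, near the 1.12% of all genes past the floor. The members' median with No.10-3 was -0.21, beside 0.05 for all genes past the floor, with 41 members below vehicle (45.7% of all genes) and 10 above it. The ERCC probe sets had a median of -0.16 in the same pair of arrays. None of the 51 was 2-fold higher than vehicle with C-30 at 2 µM, C-30 at 0.5 µM or No.10-3, where 4.26%, 3.25% and 4.08% of all genes past the floor were. The 3 comparisons share the vehicle array, and the doses of C-30 and No.10-3 differ.

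**Figure D1:**
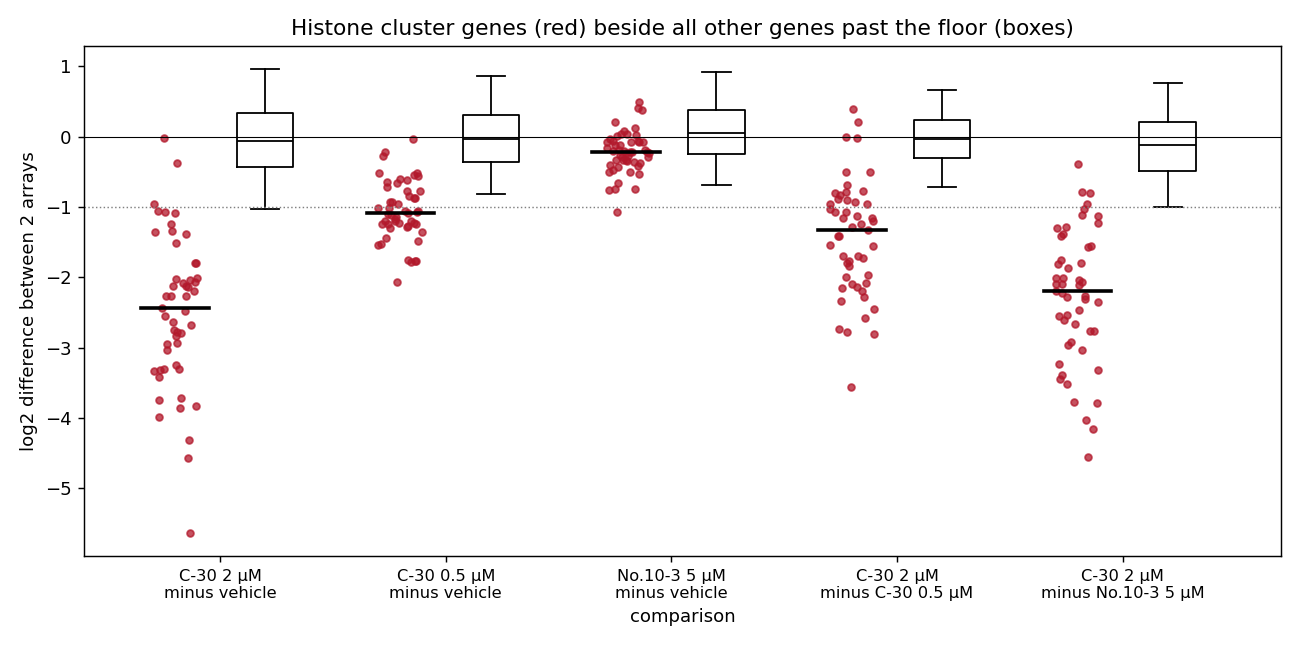
Log2 difference between 2 arrays (vertical axis) for the 51 histone cluster genes past the floor (red points, thick line at their median) and for all other genes past the floor (boxes from the 25th to the 75th percentile, whiskers from the 5th to the 95th), in 5 comparisons. The red points centre on -2.44 for C-30 at 2 µM and on -1.08 for C-30 at 0.5 µM, and on -0.21 for No.10-3, where they overlap the box; the dotted line marks a 2-fold lower signal.

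Counted over all 61 members with no floor, 50 were at least 2-fold lower than vehicle with C-30 at 2 µM (3.63% of all named genes), 33 with C-30 at 0.5 µM (1.7%) and 2 with No.10-3 (1.07%). The 10 members under the floor were H1-1, H2AC1, H2BC3, H3C3, H3C6, H4C6, H4C7, H4C9, H4C13 and H4C16. These and 4 members past the floor, H1-6, H2AC25, H2BC1 and H3C7, were within background on all 4 arrays. Of the other 47 members, 34 were above background on every array, and each of those 34 was at least 2-fold lower with C-30 at 2 µM than with vehicle. For 12 members the vehicle signal was above background and the signal with C-30 at 2 µM was within it, so only a lower bound can be given for their fold, taken against the background level of the C-30 array. That bound was at least 2-fold for 8 of the 12. Of the 48 members past the floor counted as 2-fold lower at 2 µM, 42 were so by signals above background or by their bound. The other 6, H1-3, H2AC12, H2BC4, H2BC26, H3C7 and H4C5, were counted by signals within background, as were 3 of the 31 at 0.5 µM, H1-3, H2BC26 and H4C5.

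The comparisons that leave out the vehicle array gave the same side of 0 for nearly all members. They still hold the array of C-30 at 2 µM, which entered the choice of the family, so they are descriptions too. C-30 at 2 µM was at least 2-fold below C-30 at 0.5 µM for 35 of the 51 members past the floor (1.94% of all genes) and below it at all for 49 (54.1%), with a median of -1.33, and for none was it 2-fold higher (1.12%). Against No.10-3, a different compound at a different dose, 47 of the 51 were at least 2-fold lower with C-30 at 2 µM (5.43% of all genes), all 51 were lower (59.9%) and none was 2-fold higher (1.9%), with a median of -2.20 beside -0.12 for all genes past the floor. Over all 61 members with no floor, 36 were 2-fold lower than with C-30 at 0.5 µM (1.39% of all named genes) and 51 than with No.10-3 (3.34%), while H3C3, within background, was 2-fold higher than with No.10-3. The order C-30 at 2 µM below C-30 at 0.5 µM below vehicle held for 49 of the 51, as it did for 26.3% of all genes past the floor. The exceptions past the floor were H1-6 and H2BC1, both within background. The same 49 also had a lower signal with C-30 at 0.5 µM than with No.10-3, an order that 18.6% of all genes past the floor shared.

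**Figure D2:**
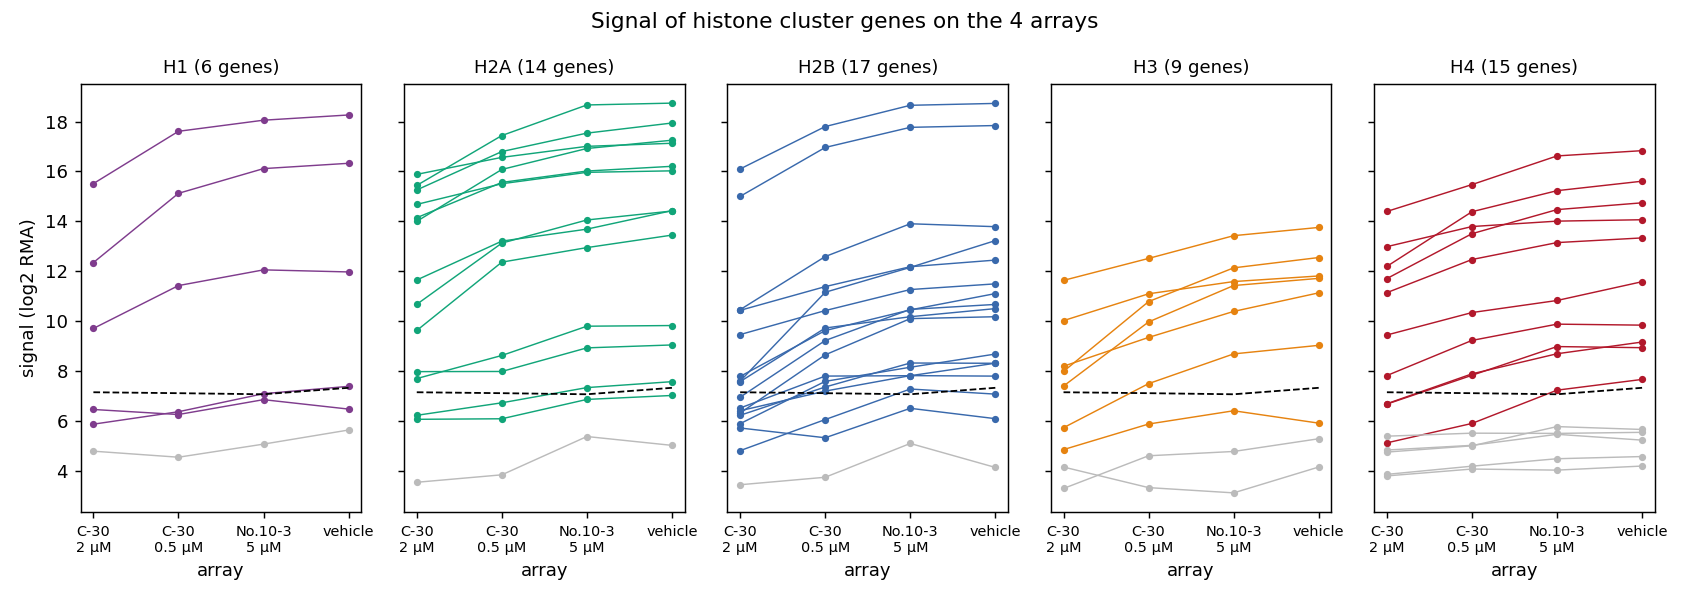
Log2 RMA signal (vertical axis) of each of the 61 members on the 4 arrays (horizontal axis), by histone family. Coloured lines are members past the floor and grey lines the 10 under it, and the dashed line is the background level of each array; most coloured lines run lowest with C-30 at 2 µM and next lowest with C-30 at 0.5 µM, while No.10-3 and vehicle stand close together.

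The promoters of the member with the lowest difference in each family past the floor are shown because histone families are known to carry different promoter elements, and that of H4C16 because it is the only member outside chromosomes 1 and 6 and was within background on all arrays. Sequences are those of RefSeq, build GRCh38.p14, from 250 bases before to 50 bases after the annotated start, written 5′ to 3′ along the gene's own strand. Capitals mark exact matches, on either strand, to CCAAT and TATAAA, to the octamer ATTTGCAT, to the H1 element AAACACA and to GGTCCG, the core of an element known in H4 promoters. In H1-5 they mark AAACACA and CCAAT, in H3C8 CCAAT alone, in H2AC8 and H2BC14 the octamer, CCAAT and TATAAA, in H4C14 GGTCCG alone, and in H4C16 GGTCCG and TATAAA.
H1-5, chr6:27867539-27867838, minus strand: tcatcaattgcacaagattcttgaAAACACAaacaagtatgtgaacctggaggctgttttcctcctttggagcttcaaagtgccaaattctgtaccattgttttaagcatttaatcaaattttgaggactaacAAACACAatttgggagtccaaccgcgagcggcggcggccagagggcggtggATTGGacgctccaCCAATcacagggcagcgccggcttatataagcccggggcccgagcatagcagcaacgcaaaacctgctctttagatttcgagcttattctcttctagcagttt
H2AC8, chr6:26216671-26216970, plus strand: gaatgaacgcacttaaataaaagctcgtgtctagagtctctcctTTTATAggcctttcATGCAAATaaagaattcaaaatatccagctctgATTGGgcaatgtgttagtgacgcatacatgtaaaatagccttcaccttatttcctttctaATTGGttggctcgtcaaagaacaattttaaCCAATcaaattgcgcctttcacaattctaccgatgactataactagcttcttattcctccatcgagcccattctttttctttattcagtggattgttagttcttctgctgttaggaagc
H2BC14, chr6:27814772-27815071, plus strand: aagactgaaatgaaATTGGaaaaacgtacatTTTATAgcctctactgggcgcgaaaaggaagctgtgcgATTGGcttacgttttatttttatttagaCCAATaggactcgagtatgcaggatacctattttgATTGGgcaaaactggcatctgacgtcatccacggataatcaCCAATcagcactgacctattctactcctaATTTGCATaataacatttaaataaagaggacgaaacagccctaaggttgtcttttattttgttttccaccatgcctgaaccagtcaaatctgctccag
H3C8, chr6:26271364-26271663, minus strand: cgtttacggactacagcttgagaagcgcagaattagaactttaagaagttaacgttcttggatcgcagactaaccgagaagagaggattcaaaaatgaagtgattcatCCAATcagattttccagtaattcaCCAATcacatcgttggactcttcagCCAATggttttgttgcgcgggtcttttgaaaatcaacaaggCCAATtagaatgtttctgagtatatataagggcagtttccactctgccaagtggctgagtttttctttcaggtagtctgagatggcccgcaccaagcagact
H4C14, chr1:149832407-149832706, plus strand: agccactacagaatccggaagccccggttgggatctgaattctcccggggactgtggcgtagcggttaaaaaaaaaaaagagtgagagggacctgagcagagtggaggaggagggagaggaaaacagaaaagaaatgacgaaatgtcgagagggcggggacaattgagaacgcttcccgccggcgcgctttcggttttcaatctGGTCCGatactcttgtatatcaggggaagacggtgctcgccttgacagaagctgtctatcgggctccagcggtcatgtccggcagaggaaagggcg
H4C16, chr12:14771082-14771381, minus strand: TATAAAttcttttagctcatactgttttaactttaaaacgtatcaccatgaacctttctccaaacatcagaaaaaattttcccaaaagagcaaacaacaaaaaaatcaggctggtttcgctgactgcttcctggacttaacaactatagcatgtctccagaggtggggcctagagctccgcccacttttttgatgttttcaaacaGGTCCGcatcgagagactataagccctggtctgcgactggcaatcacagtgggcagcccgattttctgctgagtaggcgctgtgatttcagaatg

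Promoter sequences were at hand for 57 members, and motif counts differed by family. The octamer, read by POU-domain factors in H2B promoters, was found in 14 of 17 H2B and 8 of 13 H2A promoters, in none of the H1, H3 or H4 promoters, and in 1.77% of all 35116 promoters in the table. CCAAT was in every promoter of H1, H2A, H2B and H3 and in 3 of 13 of H4, against 34.6% of all promoters. AAACACA was in 6 of 6 H1 promoters, in 1 of H2A and in 5.64% of all. GGTCCG was in 12 of 13 H4 promoters, in 1 each of H2A, H2B and H3, and in 11.3% of all. TATAAA was in 39 of the 57, against 11.5% of all promoters. In 3 members matches to different motifs overlapped. H4C16 had 5.38 with C-30 at 2 µM, 5.50 with C-30 at 0.5 µM and with No.10-3, and 5.54 with vehicle, all within background, so no difference can be read from it. H2A and H2B genes that stand head to head share promoter letters, so their matches are not separate observations.

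H2B genes, whose products pair with H2A in the nucleosome, held the lowest gene of all. H2BC14 had a signal of 7.59 with C-30 at 2 µM, 11.16 with C-30 at 0.5 µM and 12.15 with No.10-3, against 13.23 with vehicle. It was 49.6-fold lower at the higher dose of C-30 and 4.20-fold lower at the lower dose, and it was the only member past the floor that passed 2-fold with No.10-3, at 2.11-fold lower. All 4 of its signals were above background, and no other member had a lower difference with either dose of C-30. H2BC13 had 6.95, 9.22 and 10.47 with C-30 at 2 µM, C-30 at 0.5 µM and No.10-3, against 10.67 with vehicle, which puts it at least 11.5-fold lower at the higher dose. H2BC10 had 6.31, 8.65 and 10.10 on the same treated arrays, against 10.17 with vehicle, at least 8.16-fold lower. For both, C-30 was lower at each dose, while the differences with No.10-3 were -0.20 and -0.08.

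The H2B genes of highest signal were also lowest with C-30 at 2 µM and next lowest at 0.5 µM, while No.10-3 and vehicle lay close together. H2BC12 had 16.10 with C-30 at 2 µM, 17.80 with C-30 at 0.5 µM and 18.65 with No.10-3, against 18.73 with vehicle. H2BC18 had 15.003, 16.96 and 17.77 on the treated arrays in that order, against 17.84 with vehicle, and H2BC11 had 10.46, 12.59 and 13.90, against 13.79. Their differences from vehicle at 2 µM were -2.63, -2.84 and -3.33, and with No.10-3 they were -0.08, -0.07 and 0.12. The smallest differences at 2 µM among H2B genes past the floor belonged to H2BC1 and H2BC4. H2BC1 had 5.71, 5.32 and 6.50 on the treated arrays, against 6.09 with vehicle, all within background. H2BC4 had 6.40, 7.19 and 7.81, against 7.79 with vehicle, and since its signal at 2 µM was within background it was at least 1.57-fold lower. Over the 16 H2B genes past the floor the median was -2.71 with C-30 at 2 µM, -1.04 with C-30 at 0.5 µM and -0.14 with No.10-3, and 15, 9 and 1 of them passed 2-fold downwards, H2BC4 and H2BC26 among the 15 and H2BC26 among the 9 only by signals within background.

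Among H2A genes, whose proteins form dimers with H2B, the lowest was H2AC8. It had 9.62 with C-30 at 2 µM, 12.36 with C-30 at 0.5 µM and 12.95 with No.10-3, against 13.45 with vehicle, a 14.2-fold lower signal at the higher dose. H2AC4 had 10.67, 13.13 and 14.06 on these treated arrays, against 14.41 with vehicle, and was 13.4-fold lower. H2AC14 had 15.44, 17.44 and 18.67, against 18.74 with vehicle, close to the top of the scale, whose highest value on any array was 19.93. It was 9.85-fold lower at 2 µM. H2AC13 had 15.26, 16.80 and 17.54 on the treated arrays, against 17.94 with vehicle, and H2AC11 had 14.001, 16.08 and 16.92, against 17.25, which are differences of -2.68 and -3.25 at 2 µM. H2AC6 stood apart by dose, with 7.97 and 7.98 at 2 and 0.5 µM of C-30 and 8.93 with No.10-3, against 9.04 with vehicle, so that its difference was as large at the lower dose. H2AC25, within background throughout, was similar in this, at 6.06 and 6.08 with C-30 and 6.86 with No.10-3, against 7.02 with vehicle. Over 13 genes past the floor the H2A medians were -2.13, -1.08 and -0.19 with C-30 at 2 µM, C-30 at 0.5 µM and No.10-3, and 12, 8 and 0 passed 2-fold downwards, H2AC12 among the 12 only by a signal within background.

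H3 genes, whose proteins carry many of the histone marks of transcription and silencing, had the lowest family medians against vehicle past the floor. Over all members they also did with C-30 at 0.5 µM and with No.10-3, but at 2 µM H2B stood at -2.63 and H3 at -2.12. In the comparisons without the vehicle array H3 did not have the lowest median. H3C8 had 7.98 with C-30 at 2 µM, 10.78 with C-30 at 0.5 µM and 12.13 with No.10-3, against 12.55 with vehicle, and was 23.7-fold lower at 2 µM. H3C11 had 7.39, 9.97 and 11.43 on the same treated arrays, against 11.71 with vehicle, and was 20.0-fold lower. H3C10 had 5.72, 7.49 and 8.68, the first within background, against 9.03 with vehicle, and was at least 3.68-fold lower. At the lower dose H3C1 had the second lowest difference of all members, -1.79, with 8.19, 9.34 and 10.39 on the treated arrays in the same order, against 11.13 with vehicle. H3C2, the H3 gene of highest signal, had 11.63, 12.51 and 13.43, against 13.76 with vehicle. H3C13, which encodes the H3.2 protein and lies on chromosome 1, had 10.02, 11.09 and 11.59, against 11.81 with vehicle, and smaller differences of -1.79 at 2 µM and -0.72 at 0.5 µM. H3C7, within background on every array, had 4.85, 5.87 and 6.40, against 5.91 with vehicle. The medians over 7 H3 genes were -2.94, -1.54 and -0.33 with C-30 at 2 µM, C-30 at 0.5 µM and No.10-3, and 7, 5 and 0 were at least 2-fold lower, H3C7 among the 7 by signals within background.

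H4 genes, nearly all of which encode the same protein, make the partner of H3. H4C14 had 12.20 with C-30 at 2 µM, 14.39 with C-30 at 0.5 µM and 15.23 with No.10-3, against 15.61 with vehicle, and H4C15 had 11.71, 13.51 and 14.47, against 14.74. They were 10.7-fold and 8.21-fold lower at 2 µM. H4C3, the H4 gene of highest signal, had 14.40, 15.47 and 16.62 on the treated arrays, against 16.84 with vehicle. Its difference of C-30 at 0.5 µM from vehicle was -1.36 and that between the C-30 doses -1.08. H4C5 had 5.12, 5.90 and 7.23, against 7.66 with vehicle, and both C-30 signals were within background. H4C11 had the smallest difference among H4 genes past the floor, with 12.99 and 13.79 at 2 and 0.5 µM of C-30 and 14.01 with No.10-3, against 14.06 with vehicle, a 2.11-fold lower signal at 2 µM. H4C12 had the next smallest, with 7.82, 9.22 and 9.88 on the treated arrays, against 9.84 with vehicle, 4.06-fold lower at 2 µM. Over 10 genes the H4 medians were -2.35, -1.23 and -0.24 with C-30 at 2 µM, C-30 at 0.5 µM and No.10-3, and 10, 7 and 0 were at least 2-fold lower, H4C5 among the 10 and the 7 only by signals within background.

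Linker histone genes were fewer than those of any core family. H1-5 had 12.35 with C-30 at 2 µM, 15.12 with C-30 at 0.5 µM and 16.12 with No.10-3, against 16.33 with vehicle, and was 15.8-fold lower at 2 µM. H1-4 had 15.51, 17.61 and 18.06 on the treated arrays, against 18.27 with vehicle, and H1-2 had 9.70, 11.42 and 12.05, against 11.97. For both, more of the difference lay between the C-30 doses, with steps between the C-30 doses of -2.10 and -1.72 and differences of the lower dose from vehicle of -0.66 and -0.55. H1-3 had 5.87 at 2 µM and 6.36 at 0.5 µM, both within background, and 7.09 with No.10-3, against 7.38 with vehicle. H1-6, the testis linker histone gene, had 6.45, 6.25 and 6.85, against 6.47 with vehicle, all within background. Of the 5 H1 genes past the floor, 4, 2 and 0 were at least 2-fold lower with C-30 at 2 µM, C-30 at 0.5 µM and No.10-3, with medians of -2.27, -0.66 and -0.21. The 4 and the 2 include H1-3, whose bounds are 1.18-fold at 2 µM and 1.21-fold at 0.5 µM. Differences between family medians rest on few genes each and were not tested.

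Some members are known to be made outside S phase or outside dividing somatic cells, and these were set beside the rest. H1-2, H2AC6, H2BC5, H2BC12 and H2BC21 are known to yield polyadenylated mRNAs as well, and all 5 were at least 2-fold lower with C-30 at 2 µM. Their median was -2.03, beside -2.61 for the 44 other members past the floor that are not testis genes. At 0.5 µM the medians were -1.06 and -1.16. H2BC21 had 9.46 with C-30 at 2 µM, 10.42 with C-30 at 0.5 µM and 11.26 with No.10-3, against 11.49 with vehicle, and H2BC5 had 10.43, 11.38 and 12.18, against 12.45. Both were thus lower at each dose of C-30, by near the same amount at each step. The testis genes H1-6, H2AC1 and H2BC1 were within background on all arrays, and their differences cannot be read as levels of mRNA.

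Members lie in 6 blocks when neighbours more than 500 kb apart are separated in the RefSeq annotation, with 2 blocks on chromosome 1, 3 on chromosome 6 and H4C16 on chromosome 12. In the first block on chromosome 1 all 9 members passed 2-fold with C-30 at 2 µM, around a median of -2.06. Within it H2AC18 and H2AC19, near-identical copies that probes may not part, stood at -2.06 and -1.35. On chromosome 6 the medians were -2.27 over 25 members past the floor in the first block, -2.94 over 4 in the second and -3.30 over 11 in the third. At 0.5 µM the same 4 blocks had medians of -0.88, -1.08, -1.05 and -1.20, and with No.10-3 they had -0.22, -0.29, -0.16 and -0.20. All 3 blocks on chromosome 6 held members past the floor that were within background with C-30 at 2 µM. In the first of them H1-6, H2BC1 and H3C7 were so on every array. Differences between blocks were not tested. The small block on chromosome 1 held only H2AC25 and H2BC26. H2BC26 was above background with No.10-3 alone, and its signals were 4.804 with C-30 at 2 µM, 6.05 with C-30 at 0.5 µM and 7.28 with No.10-3, against 7.07 with vehicle. Neighbours could differ widely, as did H2BC14 at -5.63 and H4C11, next to it among the measured members, at -1.08.

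**Figure D3:**
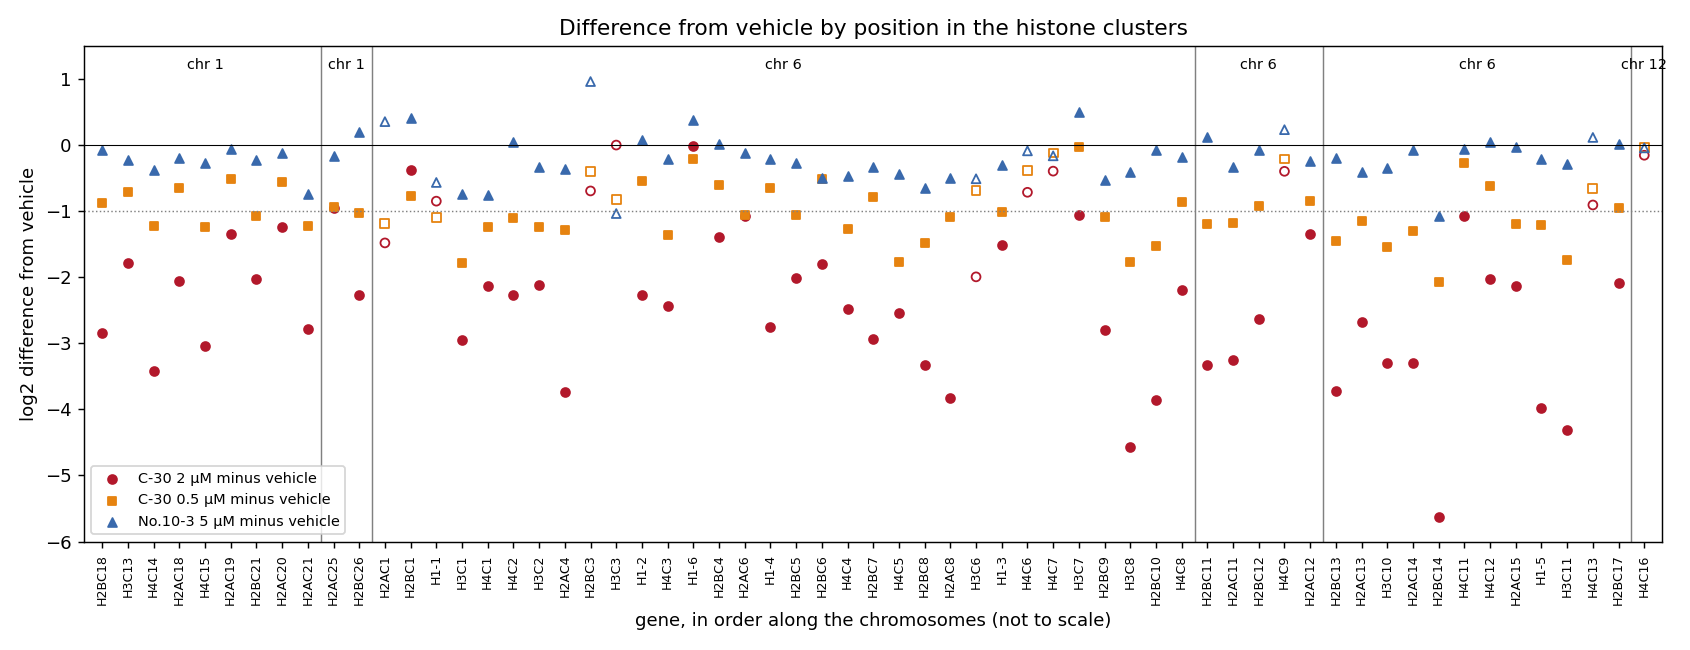
Log2 difference from vehicle (vertical axis) of all 61 members in their order along chromosomes 1, 6 and 12 (horizontal axis, not to scale), for C-30 at 2 µM (red circles), C-30 at 0.5 µM (orange squares) and No.10-3 (blue triangles). Filled symbols are members past the floor, vertical lines part the 6 blocks, and the dotted line marks 2-fold lower; red lies below orange for most members in every large block.

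H2A and H2B genes often stand head to head on opposite strands around a shared promoter, and 8 such pairs had both genes measured, with 215 to 248 bases between their starts. In 4 pairs both genes were above background with C-30 at 2 µM and with vehicle, and in all 4 both genes were at least 2-fold lower. The pair H2AC14 and H2BC14 differed most within itself, at -3.30 and -5.63. H2AC20 stood at -1.25 beside -2.03 for H2BC21, H2AC11 at -3.25 beside -3.33 for H2BC11, and H2AC8 at -3.83 beside -3.32 for H2BC8. The H2B gene thus had the lower value in 3 of the 4. Beside H2AC13, at 6.43-fold lower, H2BC13 was at least 11.5-fold lower. In the other pairs, H2AC25 with H2BC26, H2AC1 with H2BC1 and H2AC6 with H2BC4, signals within background leave the order of the genes unread.

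The size of the difference went with signal over all members past the floor, but hardly over those above background on every array. When signal was read on the No.10-3 array, which does not enter the difference, its correlation with the difference of C-30 at 2 µM from vehicle was -0.35 (Pearson) and -0.41 (Spearman) over the 51 members past the floor. Over the 34 members above background on every array it was -0.04 and -0.12. In 3 groups of 17 members by that signal, the medians at 2 µM were -1.80 for the dimmest, -2.93 for the middle and -2.78 for the brightest, and 14, 17 and 17 passed 2-fold. Of the dimmest 17, only H2AC6 and H2AC15 were above background on every array, so background limits their median. The 14 include H1-3, H2AC12, H2BC4, H2BC26, H3C7 and H4C5, which were counted by signals within background. Members share probe chemistry and closely related sequences, so these are descriptions across genes and not across samples.

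**Figure D4:**
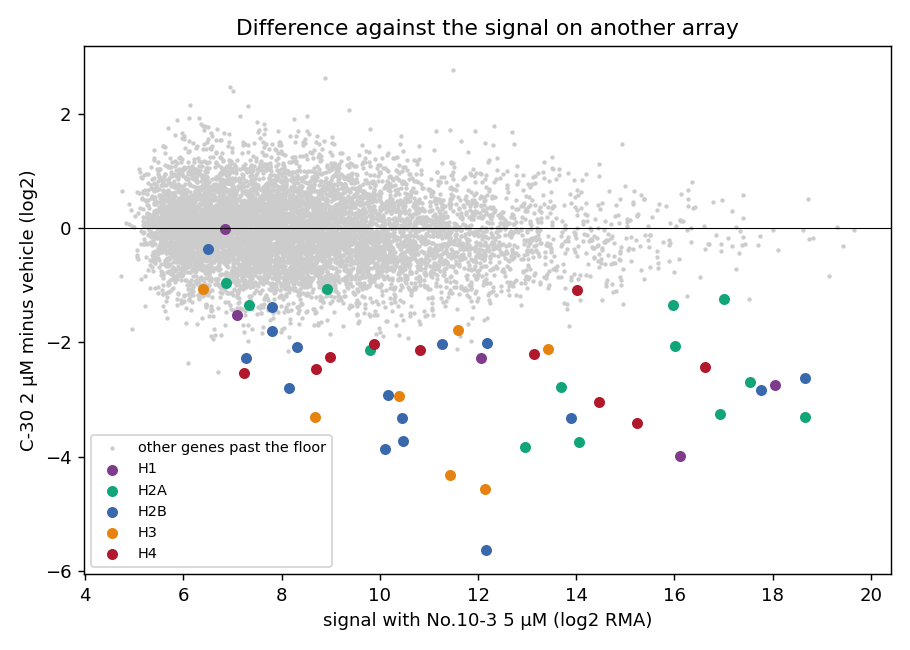
Log2 difference of C-30 at 2 µM from vehicle (vertical axis) against log2 RMA signal with No.10-3 at 5 µM (horizontal axis), for members past the floor (coloured by family) and all other genes past the floor (grey). Members lie below the grey cloud over most of the range of signal, and the dimmest lie nearest to it.

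Members also kept some of their order between differences that share no array, although the C-30 and vehicle arrays on which the family was chosen enter both of these relations. Across the 51 members, the difference of C-30 at 0.5 µM from vehicle and that of C-30 at 2 µM from No.10-3 had a Pearson correlation of 0.67 and a Spearman correlation of 0.64. Over the 8801 other genes past the floor these were 0.26 and 0.27. In the other split of the arrays, the difference of No.10-3 from vehicle and that between the C-30 doses had correlations of 0.43 and 0.32 across members, and 0.03 and 0.05 across other genes. Across only the 34 members above background on every array, the correlations were 0.65 and 0.56 in the first split and 0.33 and 0.33 in the other. Each probe set appears in both differences, so its own response range is shared, and the relations are descriptions. Between the C-30 doses the difference was lower than that of the lower dose from vehicle in 36 members and not in 15. Over the 34 members above background on every array it was lower in 26 and not in 8, among them H2AC6, H3C1 and H4C3. The array of C-30 at 0.5 µM enters both of these differences, with opposite sign. Their order was not counted over all genes, so the counts only describe the members.

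**Figure D5:**
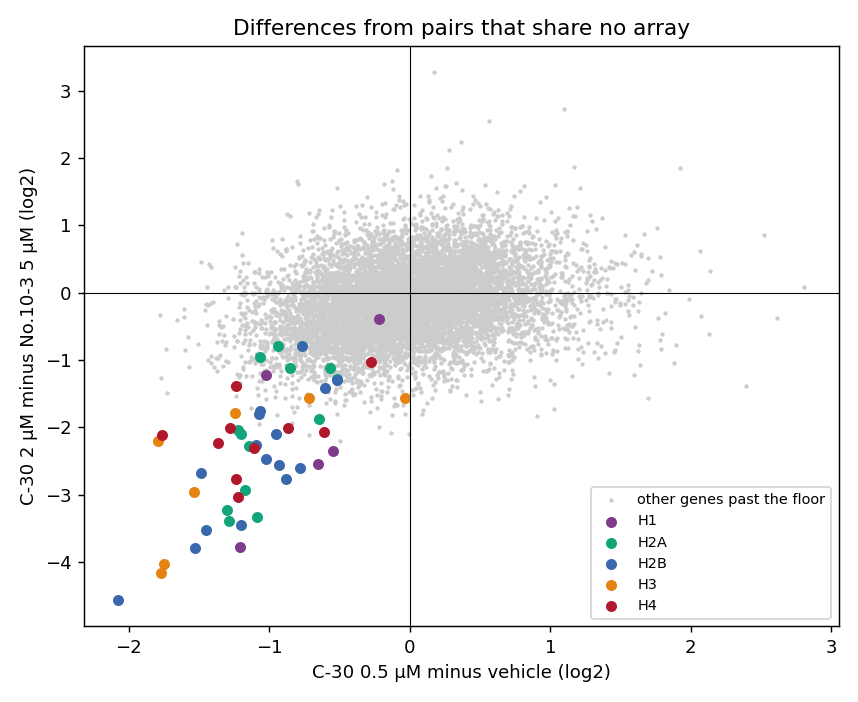
Log2 difference of C-30 at 2 µM from No.10-3 at 5 µM (vertical axis) against that of C-30 at 0.5 µM from vehicle (horizontal axis), for members past the floor (coloured by family) and other genes (grey). No array enters both axes; all 51 members lie below 0 on both axes, with H2BC14 farthest out.

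Genes that act with the histone genes showed much smaller differences. Of 27 measured genes of histone mRNA transcription and processing past the floor, 3 were at least 2-fold lower and 1 higher with C-30 at 2 µM, where 6.12% of all genes past the floor were lower and 4.26% higher, with a median of -0.31. At 0.5 µM 1 was lower and none higher (2.68% and 3.25% of all genes), and with No.10-3 none was lower and 1 higher (1.12% and 4.08%). SLBP had 9.67 with C-30 at 2 µM, 9.69 with C-30 at 0.5 µM and 9.62 with No.10-3, against 9.39 with vehicle, so it was slightly above vehicle on every treated array. NPAT, the coactivator of histone transcription driven by cyclin E and CDK2, had differences from vehicle of 0.38, 0.27 and 0.86 with C-30 at 2 µM, C-30 at 0.5 µM and No.10-3, and CASP8AP2, a processing factor of the histone locus body, -0.31, -0.12 and -0.78. LSM11, LSM10 and ZNF473, of the U7 particle that cuts histone pre-mRNA or its partner, stood at 0.07, 0.60 and -0.45 with C-30 at 2 µM. NPAT, LSM11 and ZNF473 were within background on all arrays, CASP8AP2 on all but that of C-30 at 0.5 µM, and LSM10 with No.10-3 and vehicle, so these differences are not exact. The 3 genes past 2-fold downwards at 2 µM were SYMPK, the scaffold of the cleavage complex, at -1.28, UPF1, a helicase of histone mRNA decay, at -1.20, and the cell cycle factor gene E2F1 at -1.01, the last 2 within background there. E2F1 was also the lower one at 0.5 µM, at -1.17, and was within background there as well. The higher gene was TUT7, whose product adds uridines to RNA ends, at 1.16 with C-30 at 2 µM and with No.10-3, its vehicle signal being within background.

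Replacement and variant histones outside the clusters did not pass 2-fold. Of 9 replacement and variant histone genes past the floor, none was 2-fold lower or higher with any of the 3 treatments, and the medians were -0.27 with C-30 at 2 µM, -0.16 with C-30 at 0.5 µM and 0.12 with No.10-3. In the same order, 6.12%, 2.68% and 1.12% of all genes past the floor were lower and 4.26%, 3.25% and 4.08% higher. None of 9 is near those shares. H2AZ1, a variant placed at promoters, had 13.31, 13.24 and 12.98 on the treated arrays, against 12.98 with vehicle. The lowest were H2AJ, within background there, at -0.89 and H2AX, the variant phosphorylated at DNA breaks, at -0.85 with C-30 at 2 µM. Both lists were described beside the members without a test of the difference between them. Of 17 histone chaperone genes past the floor, 1 was 2-fold higher with C-30 at 2 µM, HAT1, which acetylates new H4, at 1.05. None was lower, and the median was -0.16, where 4.26% of all genes past the floor were higher and 6.12% lower.

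Replication and G1/S genes, whose activity accompanies histone synthesis, were lower in part. Of 41 past the floor, 8 were at least 2-fold lower and 1 higher with C-30 at 2 µM, beside 6.12% and 4.26% of all genes past the floor, with a median of -0.54. At 0.5 µM 2 were lower and 1 higher (2.68% and 3.25% of all genes), with a median of -0.27. With No.10-3 1 was lower and none higher (1.12% and 4.08%), with a median of -0.10. MCM5, of the replicative helicase, stood at -1.54, the cyclin gene CCNE2, within background, at -1.46 and its kinase partner CDK2 at -1.36 with C-30 at 2 µM. The gene past 2-fold upwards was CCNA2, for the S-phase cyclin A, at 1.11, and at 0.5 µM it was RFC3, of the clamp loader, at 1.55. Those past 2-fold downwards at 0.5 µM were MCM5 at -1.05 and E2F1, which was within background there. With No.10-3 it was ORC6, of the origin recognition complex, at -1.28, within background there and with vehicle. Whether these genes or the share of cells in S phase bear on the histone values was not tested.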

How the data were processed

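Total RNA of DU145 cells was labelled with a whole-transcript kit and hybridised to 1 array per condition, per the labels' protocols. For the deposited log2 signals, the submitters' processing notes name Affymetrix Expression Console, version 1.3.0, and RMA. The log2 base was inferred from the range and from RMA's usual output, and neither genome build nor probe annotation is given in the sources used here. RMA normalizes arrays to each other, so a change in total RNA per cell cannot be seen. The highest value, 19.93, is above what scanner readings span, so folds hold only on the scale of these values.

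Of 24351 probe sets, 17709 had 1 gene symbol, 0 several and 6642 none. All 17709 were matched by Entrez identifier to RefSeq GRCh38.p14, giving 17687 genes; 20 genes, none a member, had several probe sets, which were averaged. Per gene, signals on 2 arrays were subtracted. With 1 array per group no test is possible, and their number limits the precision. Members and lists were chosen with earlier results of these data known, and motifs after the values had been seen. Members given in full were, per family, those with the 3 highest vehicle signals and the 3 lowest and 2 highest differences at 2 µM, and any past 2-fold with No.10-3. The first 6 genes of the processing list and at most 3 past 2-fold per list were named by rule; other genes were named after their values were seen. Alternatives were other floors or none, 3 other scalings, a 1.5-fold threshold, the brightest probe set and the per-sample files. Counting was run on simulated data with bright genes, a shift far past the threshold, little noise and no floor. That run checks the code only and says nothing about dim members or the noise of these arrays. Python 3.11.15, numpy 2.4.6, pandas 2.3.3, statsmodels 0.14.6 and matplotlib 3.10.9 were used.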

Additional observations from a re-analysis of the deposited data

How the results depend on the processing

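Alternatives numbered 95 over the 5 comparisons, and none turned a median to the other side of 0. With C-30 at 2 µM against vehicle the members' median was -2.14 with no floor and -2.72 both with a floor at the 75th percentile and with only genes above background on all 4 arrays, the last an alternative chosen after seeing the data. With C-30 at 2 µM against C-30 at 0.5 µM it was -1.16, -1.63 and -1.63 in the same settings; these keep other members, by construction. The count of members at least 2-fold lower with No.10-3 was 2 with no floor (1.07% of all named genes), where H3C3, within background, is added. At a 1.5-fold threshold it was 5, which only describes the members, since no share over all genes is at hand for that threshold. Centring each array on its median past the floor moved the median difference of all genes by -0.10 for No.10-3 against vehicle and by 0.16 for C-30 at 2 µM against No.10-3, and gave the members medians of -0.31 and -2.04. With No.10-3, 41 of 51 members were below vehicle as deposited, and between 44 and 46 after the 3 other scalings. Those scalings also moved the median difference of all genes past the floor, by between -0.05 and -0.10. The share of all genes below vehicle was not counted after them, so the rise is no result about the members. With C-30 at 2 µM, H1-6 moved above vehicle after centring. No paired analysis was possible because each condition has 1 array. Signals near the background level limit the folds of dim members.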
